A study of Mus musculus with 3 samples.

Results

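The 10 genes described here mark hepatocytes around the central vein of the mouse liver lobule. They are Glul, Oat, Slc1a2, Gulo, Lhpp, Slc22a3, Rgn, Axin2, Lgr5 and Tbx3, taken by gene symbol from the 55357 genes of the count matrices, and all 10 were found. Their levels, the share of cells in which they were detected, and their detection together in single cells were measured by droplet single-cell RNA sequencing in 3 libraries, 1 per group. All mice were wild-type C57BL/6J males, 8 weeks old at the start, and each library pooled the cells of 2 mice. The CON group was kept untreated under standard housing. For 4 months the HFD group received a diet in which fat supplied 60% of the kcal, a model of metabolic dysfunction-associated steatohepatitis. The CCL4 group ate normal chow for 3 months and was then injected intraperitoneally with a 10% CCl4 (carbon tetrachloride) solution for 4 weeks, 2 times a week at 0.1 mL each, a model of liver fibrosis. In all groups the liver was perfused with collagenase, and hepatocytes and non-parenchymal cells were mixed in equal parts before loading.

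Hepatocytes differ along the axis from the portal tract to the central vein, a pattern called zonation. Wnt ligands and R-spondins released by endothelial cells of the central vein are known to activate β-catenin in the hepatocytes next to it, which turns on Glul and its companions, whereas the urea cycle and gluconeogenesis are concentrated near the portal tract. CCl4 is converted to its toxic form by Cyp2e1, an enzyme of the pericentral cells, and damages these cells first.

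With 1 library per group there was no replicate check, so no p-value was computed, and each 95% interval below covers counting error only, not the difference between mice. Hepatocytes were the droplets with 3 to 30% mitochondrial UMIs (unique molecular identifiers, each counting 1 captured RNA molecule) and no UMI of Ptprc, the pan-leukocyte gene. There were 1299 in CON, 870 in HFD and 2470 in CCL4, with a median of 7845, 3578 and 3099.5 UMIs per cell. They were 11.6%, 6.70% and 19.4% of the barcodes, and a mitochondrial minimum of 2% would give 1564, 1106 and 3199. Shares of hepatocytes below are shares of the droplets in this gate. All 11 hepatocyte marker genes were detected in each library, at a median of 10.7%, 11.5% and 15.9% of a hepatocyte's UMIs. The same genes made up a median of 2.36%, 7.49% and 12.5% of the UMIs of T cells, which do not make them, so RNA released from broken hepatocytes (free RNA) was present in every library and was lowest in CON. The CON hepatocytes stood apart in a further way, since Saa1, an acute-phase gene, was at 11209 CPM (UMIs per 1000000) there against 516 in HFD and 169 in CCL4. Of the hepatocytes, 112 in CON, 22 in HFD and 49 in CCL4 also met the marker gate of an immune, endothelial, fibroblast or erythroid cell, and 211, 8 and 60 met the cholangiocyte gate, mostly through Sox9 and Spp1, because Krt7 was at 0, 0 and 2 UMIs. Between 36 and 52 cell barcodes were shared by any pair of libraries.

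In the GENCODE annotation of the GRCm38 build, Glul lies at chr1:153899944-153909723 on the plus strand, Oat at chr7:132557478-132576398 on the minus strand, Slc1a2 at chr2:102658659-102790784 on the plus strand, Gulo at chr14:65986786-66009207 on the minus strand and Rgn at chrX:20549787-20562089 on the plus strand. Lhpp lies at chr7:132610638-132706420 on the plus strand, 34239 bp from Oat, with Nkx1-2 as the only protein-coding gene wholly between them. Fgfr2 is annotated across both, on the strand of Oat. Slc22a3 lies at chr17:12418960-12507704 on the minus strand, Axin2 at chr11:108920349-108950783 on the plus strand, Lgr5 at chr10:115450311-115587780 on the minus strand and Tbx3 at chr5:119670669-119684724 on the plus strand.

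The RefSeq promoter table (GRCm38.p6), which gives 250 bases before to 50 bases after a transcription start, held 5 of the 10 genes, namely Glul, Oat, Slc1a2, Slc22a3 and Axin2. Their windows were searched on both strands for CTTTGNT, the core of the sequence bound by the TCF/LEF factors that act with β-catenin. The Slc1a2 window held 1 match, and the windows of the other 4 genes held none, against a share of 18.6% of the 32851 promoters in the table. The narrower form CTTTGAT, which is the form in the Slc1a2 window on the opposite strand, was in 3.73% of promoters. The Glul and Slc1a2 windows are shown because the results on single cells turn on these genes and Slc1a2 held the only match, with the match at position -207 from the start in capitals. The Slc1a2 window (chr2:102706188-102706487, plus strand) lies inside the annotated gene, at an internal start, and the Glul window is chr1:153899679-153899978, plus strand.
Glul: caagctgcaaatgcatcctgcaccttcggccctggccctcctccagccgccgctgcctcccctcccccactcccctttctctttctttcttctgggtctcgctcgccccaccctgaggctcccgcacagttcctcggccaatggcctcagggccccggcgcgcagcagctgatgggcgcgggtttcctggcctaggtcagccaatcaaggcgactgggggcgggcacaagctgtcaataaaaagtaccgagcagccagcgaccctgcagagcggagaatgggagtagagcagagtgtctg
Slc1a2: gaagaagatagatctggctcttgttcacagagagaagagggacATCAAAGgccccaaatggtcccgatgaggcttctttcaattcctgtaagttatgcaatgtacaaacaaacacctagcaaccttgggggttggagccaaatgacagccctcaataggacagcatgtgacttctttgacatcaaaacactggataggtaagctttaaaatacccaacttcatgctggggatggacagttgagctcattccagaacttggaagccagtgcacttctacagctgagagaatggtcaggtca

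Most of the 10 genes were highest in HFD hepatocytes and lowest in CCL4 hepatocytes. The levels of Glul, glutamine synthetase, which captures ammonia as glutamine in the last cells before the central vein, were 262 CPM in CON (95% interval 253 to 272), 879.6 in HFD (848 to 912) and 52.7 in CCL4 (48.1 to 57.7). Oat, ornithine aminotransferase, which feeds glutamate to that reaction, was at 709.9 CPM in CON (694 to 726), 1296 in HFD (1258 to 1335) and 80.9 in CCL4 (75.2 to 87.0). Slc1a2, a high-affinity glutamate transporter, was at 34.4 CPM in CON (31.0 to 38.1), 115 in HFD (104 to 127) and 3.62 in CCL4 (2.49 to 5.08). For these 3 genes of glutamate and glutamine handling the order was HFD, CON, CCL4, and no intervals overlapped.

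Gulo and Rgn act in vitamin C synthesis, Gulo as its last enzyme and Rgn as the lactonase before it. Gulo was at 155 CPM in CON (147 to 162), 296 in HFD (278 to 315) and 59.2 in CCL4 (54.3 to 64.4). Rgn was at 388 CPM in CON (376 to 399), 835 in HFD (805 to 867) and 293 in CCL4 (282 to 305), the same order with a smaller gap between CON and CCL4. Lhpp, a phosphatase of phosphohistidine and inorganic pyrophosphate, was at 9.60 CPM in CON (7.86 to 11.6), 19.6 in HFD (15.1 to 24.9) and 0.877 in CCL4 (0.379 to 1.73), from 106, 66 and 8 UMIs. The organic cation transporter gene Slc22a3 went its own way at 4.26 CPM in CON (3.13 to 5.66), 8.31 in HFD (5.52 to 12.0) and 7.57 in CCL4 (5.89 to 9.58). Its HFD interval overlapped that of either other library, and its CCL4 level lay above CON with separate intervals.

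The 3 members of the Wnt response itself were sparse. Tbx3, a T-box transcription factor, was at 8.78 CPM in CON (7.12 to 10.7), 26.7 in HFD (21.5 to 32.8) and 1.32 in CCL4 (0.680 to 2.30). Lgr5, a receptor for R-spondins, was at 1.99 CPM in CON (1.25 to 3.02), 10.7 in HFD (7.48 to 14.8) and 0.110 in CCL4 (0.00278 to 0.611), the last of these from 1 UMI in 2470 hepatocytes. Axin2, a feedback inhibitor of the pathway, was at 0.996 CPM in CON (0.497 to 1.78), 4.75 in HFD (2.71 to 7.71) and 0.987 in CCL4 (0.451 to 1.87), from 11, 16 and 9 UMIs. Tbx3 and Lgr5 kept the order HFD, CON, CCL4 with separate intervals, while the CON and CCL4 intervals of Axin2 covered each other.

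**Figure D1:**
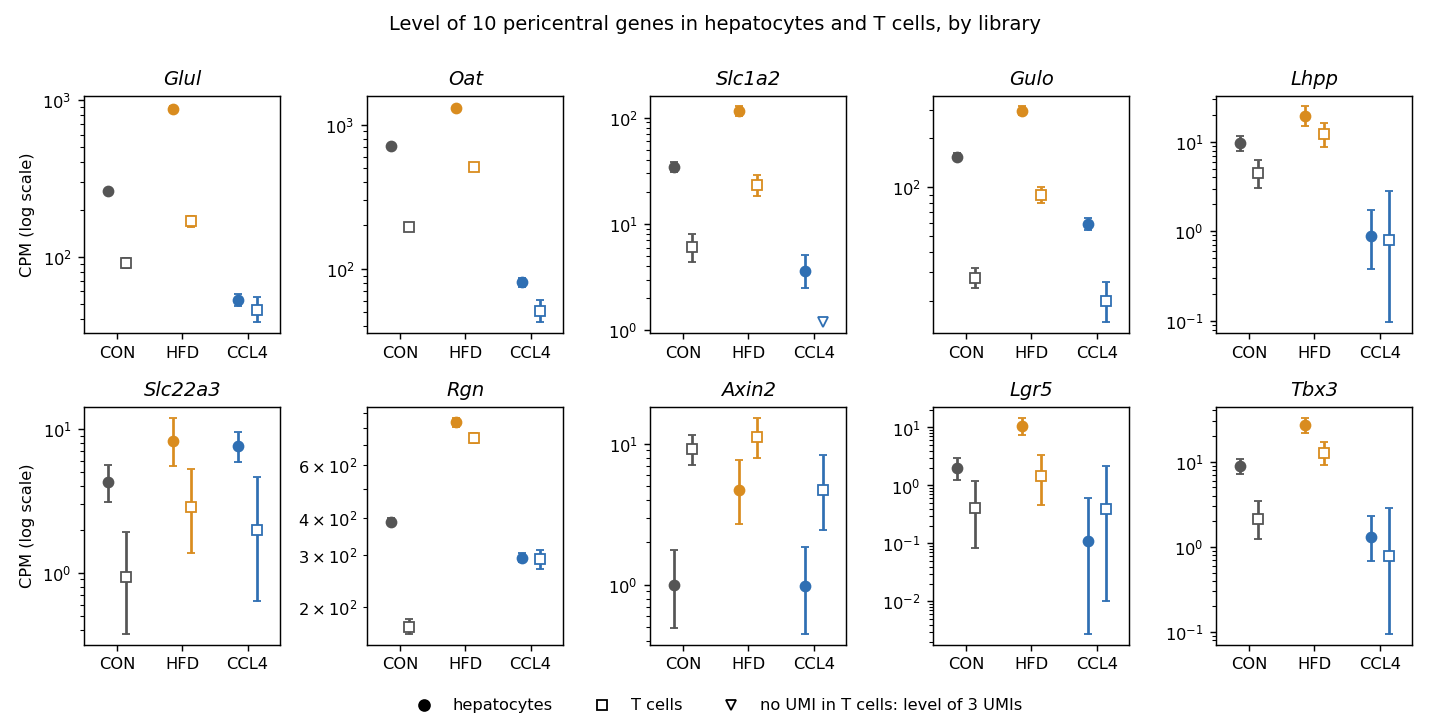
Level of each of the 10 genes in CPM (log axis, a different range in each panel) in hepatocytes (filled circles) and T cells (open squares) of the CON, HFD and CCL4 libraries, with 95% counting intervals. In 9 of the 10 panels the HFD hepatocytes are above the CON hepatocytes with separate intervals, Slc22a3 being the exception, and the triangle marks Slc1a2 in CCL4 T cells, which had no UMI and is drawn at the level of 3 UMIs.

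Set against CON, the HFD hepatocytes had 3.36 times the Glul level (95% interval 3.19 to 3.53), 3.35 times the Slc1a2 level (2.90 to 3.87) and 3.04 times the Tbx3 level (2.26 to 4.09). Of the 8 members with a mean of at least 5 CPM over the 3 libraries, which leaves out Axin2 and Lgr5, 5 were at least 2-fold higher in HFD and 0 were at least 2-fold lower, where 7.69% of all 8469 genes at that level were at least 2-fold higher and 5.2% at least 2-fold lower. The members' median ratio was 2.10, and that of all genes 1.09. The 3 members short of the 2-fold mark were Oat at 1.83 (1.76 to 1.89), Gulo at 1.91 (1.77 to 2.07) and Slc22a3 at 1.95 (1.18 to 3.18). The sparse genes Lgr5 and Axin2 had ratios of 5.36 (3.07 to 9.57) and 4.77 (2.08 to 11.4).

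How many members passed the 2-fold mark in HFD depended on which droplets were kept. Among droplets with no UMI of any immune, endothelial, cholangiocyte or fibroblast marker, 290 hepatocytes were left in CON and 522 in HFD, with medians of 4296.5 and 3411.5 UMIs. In them Glul was at 524 CPM in CON and 891 in HFD, Oat at 2044 in CON and 1416 in HFD, and 1 of the members was at least 2-fold higher in HFD, where 8.29% of all genes were. The HFD to CON ratios of Oat, Gulo and Lhpp turned to 0.693, 0.836 and 0.887 there, and that of Slc1a2 was 0.996. With a mitochondrial minimum of 5% instead of 3%, 8 members were at least 2-fold higher, and 10.4% of all 8466 genes. The difference between HFD and CON thus changed with the gate, and the part of depth and of other cell types' RNA in it was not tested.

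In CCL4, 6 of the 8 members were at least 2-fold lower than in CON, and 0 were at least 2-fold higher, where 6.81% of all 8469 genes were lower and 7.17% higher by that much. The CCL4 level of Lhpp was 0.0914 of the CON level (0.0385 to 0.187), that of Slc1a2 0.105 (0.0713 to 0.150), that of Oat 0.114 (0.106 to 0.123), that of Tbx3 0.150 (0.0748 to 0.274), that of Glul 0.201 (0.182 to 0.222) and that of Gulo 0.383 (0.347 to 0.422). Rgn, at 0.757 (0.721 to 0.795), was lower by less than 2-fold, and Slc22a3 was higher at 1.78 (1.21 to 2.63). The median ratio of the 8 members was 0.174, and that of all genes 1.04. Lgr5 had a ratio of 0.0550 (0.00133 to 0.341), resting on the single UMI in CCL4.

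The lowest ratios were those of CCL4 to HFD. There 7 of the 8 members were at least 2-fold lower and 0 at least 2-fold higher in CCL4, where 4.76% of all 8464 genes were lower and 2.56% higher by that much. Glul was 16.7-fold higher in HFD than in CCL4 (15.1 to 18.4), Oat 16.0-fold (14.8 to 17.3), Slc1a2 31.9-fold (22.3 to 47.0), Tbx3 20.3-fold (11.1 to 40.7) and Lhpp 22.3-fold (10.7 to 53.8). Gulo was 5.00-fold and Rgn 2.85-fold higher in HFD, while Slc22a3 was at a CCL4 to HFD ratio of 0.911 with an interval from 0.579 to 1.47. The 3 comparisons reuse the same libraries and are not independent of each other. With the narrower set of droplets free of other cell types' markers, 1539 CCL4 hepatocytes gave Glul at 68.7 CPM and Oat at 121 CPM, below both other libraries again.

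**Figure D2:**
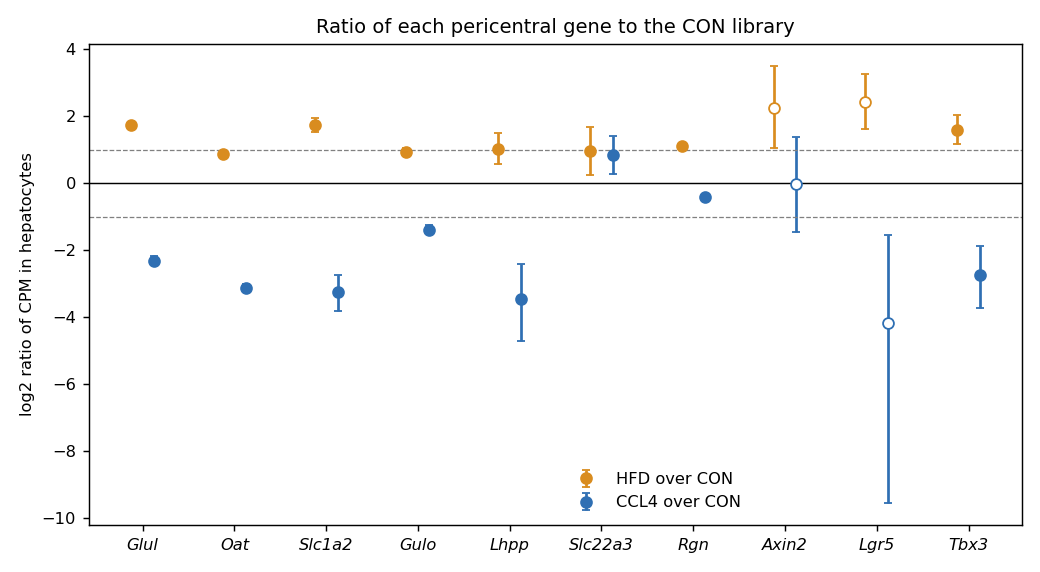
Log2 ratio of each gene's CPM in hepatocytes of HFD (orange) and CCL4 (blue) to the CON library, with 95% counting intervals. Open circles are Axin2 and Lgr5, whose mean was under 5 CPM, the dashed lines mark a 2-fold difference in either direction, and Slc22a3 is the only gene with both ratios above 1.

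The share of hepatocytes with a UMI of a gene depends on depth, whereas the level is scaled to total UMIs. The part of depth in the levels was not tested. At full depth Glul was detected in 55.8% of CON hepatocytes (53.1% to 58.5%), 49.3% of HFD hepatocytes (45.9% to 52.7%) and 9.55% of CCL4 hepatocytes (8.42% to 10.8%). CON cells were the deepest, and after thinning every cell to 1000 UMIs, which no cell fell short of, the shares were 17.7%, 24.8% and 3.18%, now in the order of the levels. T cells thinned the same way had Glul in 8.74%, 15.4% and 3.53%. The CCL4 share was therefore no higher than the share in these T cells. By level, a second T cell gate, with another marker rule and no need of Ptprc, gave less Glul, as described below.

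For Oat the thinned shares were 27.2%, 43.1% and 3.41% in hepatocytes of CON, HFD and CCL4, against 18.0%, 41.0% and 4.51% in T cells. Those of Rgn were 27.3%, 47.9% and 21.0% in hepatocytes, against 14.6%, 52.3% and 24.0% in T cells. Detection of Oat in CCL4, and of Rgn in HFD and CCL4, was thus at or below background in T cells. In these cases the share of cells with a UMI did not set hepatocytes apart from T cells. By level, Oat in CCL4 hepatocytes was 1.59-fold above T cells (1.31 to 1.93). Levels within hepatocytes were uneven. In the periportal and pericentral tertiles described below, Oat in CCL4 was at 15.7 and 225 CPM, and Rgn in HFD at 186 and 1772. Slc1a2 was detected in 2.94%, 8.27% and 0.178% of thinned hepatocytes against 0.663% and 2.36% of T cells in CON and HFD and no T cell in CCL4, where 3 UMIs would amount to 1.19 CPM. Gulo, at 13.7%, 21.6% and 4.86% in hepatocytes, was above its T cell shares of 2.98%, 9.01% and 1.99% in all libraries.

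Of the 8 members with a hepatocyte mean of at least 5 CPM, 8 were at least 2-fold above T cells in CON, 6 in HFD and 3 in CCL4. Of all genes at that level, 19.5%, 11.8% and 13.9% were. This limit was set on hepatocytes, the side tested as higher. It left out Axin2, at 0.109, 0.422 and 0.208 of its T cell level, and Lgr5, at 4.94, 7.41 and 0.277. The hepatocyte reference genes had median hepatocyte to T cell ratios of 3.70, 1.80 and 1.51. In CON, Glul stood 2.88-fold above T cells (2.65 to 3.14), Oat 3.62-fold (3.42 to 3.83) and Slc1a2 5.69-fold (4.17 to 7.94). In HFD, Glul was 5.21-fold (4.77 to 5.70) and Slc1a2 5.01-fold (3.93 to 6.45) above T cells, higher than any of the 11 reference genes, whose ratios ended at 2.75, while Rgn was at 1.13 (1.07 to 1.19).

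In CCL4, Glul was 1.15-fold above T cells (0.936 to 1.42) and Rgn 1.01-fold (0.933 to 1.10), so the summed levels of these genes in hepatocytes could not be distinguished from those in these T cells. For Glul this depended on the T cell gate. A second gate took no account of Ptprc and asked for at least 3 UMIs and at least 2 genes of the T cell list. These UMIs also had to outnumber those of any other non-hepatocyte marker list. T cells in this gate had Glul at 30.7 CPM (24.2 to 38.4), below the 52.7 (48.1 to 57.7) of hepatocytes. Rgn in them was at 281 CPM (260 to 302), overlapping the hepatocytes' 293 (282 to 305). Within the hepatocytes the levels were uneven, as Rgn was at 117 CPM in the periportal and 629.7 CPM in the pericentral tertile described below, against 289.7 CPM in T cells. The members still 2-fold above T cells in CCL4 were Gulo at 2.99 (2.24 to 4.08), Slc22a3 at 3.82 (1.56 to 12.1) and Slc1a2, which had 33 UMIs in hepatocytes and 0 in T cells and was at least 3.05-fold higher against a floor of 3 UMIs. The free RNA itself followed the libraries. Glul in T cells was at 90.9 CPM in CON, 169 in HFD and 45.9 in CCL4, and Oat at 196, 512 and 51.1. Axin2 was higher in T cells, with 9.13, 11.2 and 4.75 CPM against 0.996, 4.75 and 0.987 in hepatocytes. Other immune droplets did not share this level. By marker gates in CON, T cells had 10.8 CPM (8.13 to 14.1), against 0.619 in B cells, 2.22 in neutrophils and 4.11 in NK cells. The intervals of those gates lay below that of T cells, so the T cell level of Axin2 is not read as free RNA.

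Outside hepatocytes, Glul in CON was above its T cell level of 90.9 CPM in several kinds of droplets. Droplets in the endothelial gate had 367 CPM of Glul in CON, 330 in HFD and 182 in CCL4, and those in the monocyte and macrophage gate had 151, 243 and 269. Endothelial cells and macrophages are known to make glutamine synthetase. The cholangiocyte gate was at 318, 181 and 81.3 CPM and the fibroblast and stellate gate at 266, 169 and 148, whereas neutrophils were at 135, 139 and 67.2 and B cells at 127 and 123 in CON and HFD. In CCL4 the intervals of the endothelial, macrophage and cholangiocyte gates lay wholly above that of the hepatocytes, while the fibroblast value came from 6 UMIs in 13 droplets. The CCL4 intervals of the erythroid gate and the T cell marker gate lay wholly below that of the hepatocytes. In the endothelial gate Slc1a2 was at 5.98 and 20.7 CPM in CON and HFD, with no UMI in CCL4 (95% upper bound 15.6 CPM). Gulo was at 28.7, 94.9 and 42.4 there. The part of hepatocyte RNA in these gates was not tested.

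The spread of Glul over single hepatocytes also differed between the libraries. Hepatocytes with at least 10 Glul UMIs numbered 37 in CON (2.85%, 2.01% to 3.90%), 78 in HFD (8.97%, 7.15% to 11.1%) and 2 in CCL4 (0.0810%, 0.00981% to 0.292%). They held 40.8%, 79.1% and 40.5% of all Glul UMIs of the hepatocytes in their library. HFD, although shallower than CON, had the most Glul-rich cells, and CCL4 had the fewest despite its largest number of hepatocytes. Without these cells Glul fell to 162 CPM in CON, 202 in HFD and 31.4 in CCL4, and the HFD to CON ratio to 1.25. The cells were removed by their own Glul count, so a fall in level was fixed in advance. A limit of 10 UMIs was a higher level in the shallower HFD cells than in CON, so the ratio of 1.25 does not compare like cells.

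The 2 Glul-rich cells of the CCL4 library carried UMIs of 6 and 4 of the 9 other members. The first had 103 Glul, 116 Oat, 21 Gulo, 6 Rgn, 2 Slc1a2, 1 Slc22a3 and 1 Axin2 UMIs among 5487, and the second 92 Glul, 108 Oat, 12 Gulo, 7 Rgn and 15 Slc1a2 UMIs among 4883. Neither had a UMI of Cyp2f2, a periportal gene. Beyond them no CCL4 hepatocyte had more than 5 Glul UMIs. The richest cell of CON had 205 Glul, 50 Oat and 11 Slc1a2 UMIs among 9423, and that of HFD 99 Glul, 41 Oat and 12 Slc1a2 UMIs among 7385. Glul reached 18804 CPM in the CCL4 pair, 7616 in the 78 HFD cells and 2736 in the 37 CON cells, whose threshold was easier to reach at their greater depth.

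A definition that scales with depth, at least 5 Glul UMIs making up at least 0.2% of the cell's UMIs, was chosen after seeing the data and gave 16 cells in CON, 83 in HFD and 2 in CCL4. In these cells Glul was at 9447, 7453 and 18804 CPM. Their share was 1.23% (0.706% to 1.99%) in CON, 9.54% (7.67% to 11.7%) in HFD and 0.0810% in CCL4. The definition itself keeps Glul in these cells above a minimum, so the levels within them are not a comparison of libraries. Oat was detected in every one of them and Slc1a2 in 15 of 16, 76 of 83 and 2 of 2.

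**Figure D3:**
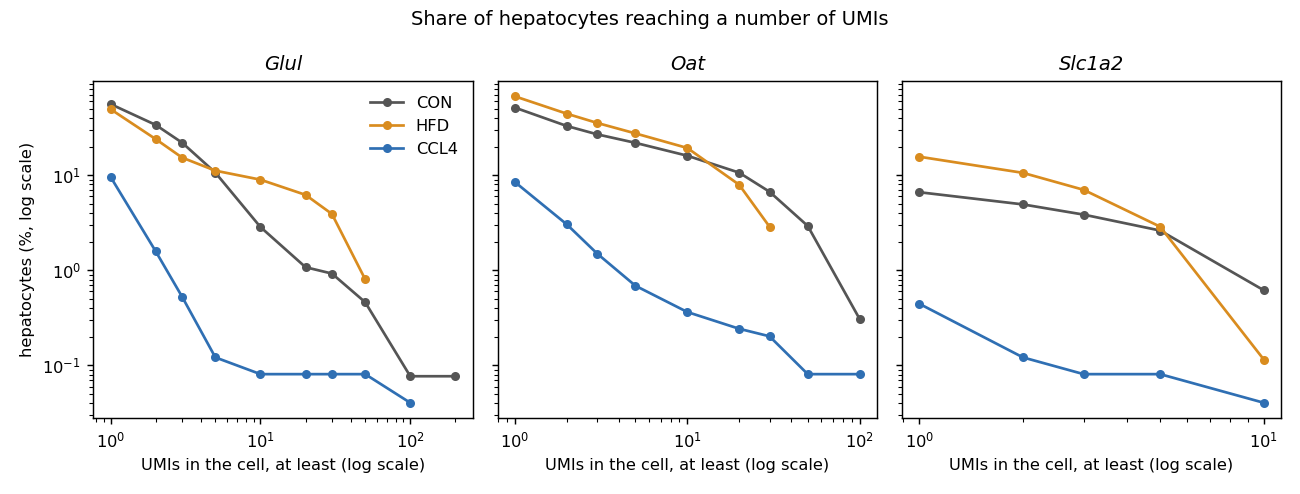
Share of hepatocytes (percent, log axis) with at least the number of UMIs on the horizontal axis (log axis) of Glul, Oat and Slc1a2 in each library. The Glul curve of CCL4 falls to 2 cells (0.0810%) by 10 UMIs and stays flat to 50, while 8.97% of HFD hepatocytes reach 10 Glul UMIs, and points at 0 cells are not drawn.

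To place the members along the lobule without using them, hepatocytes were ordered by the log ratio of 19 other pericentral to 16 periportal genes and divided into tertiles. Most members rose steeply in the last step. In CON, Oat was at 36.3, 117 and 2391 CPM in the periportal, middle and pericentral tertile, Slc1a2 at 0.849, 3.65 and 119, Gulo at 12.5, 39.9 and 498 and Rgn at 50.5, 209 and 1102. Glul was at 80.0, 149 and 665, with a periportal level near that of the T cells. The periportal levels of Oat, Slc1a2, Gulo and Rgn in CON lay below their T cell levels of 196, 6.04, 27.7 and 172 CPM. Slc22a3 and Lgr5 went the other way, at 3.82 against 0.940 and 0.637 against 0.403 CPM. In HFD and CCL4, periportal Glul lay below T cells too, at 112 against 169 and 18.2 against 45.9 CPM. For genes below T cells, the T cell level can overstate free RNA in hepatocytes. All 8 members were at least 1.5-fold higher in the pericentral than in the periportal tertile of CON and of HFD, and 7 of 8 in CCL4, where 16.4%, 17% and 6.52% of all genes were. Lhpp counted in CCL4 with 6 against 1 UMI, and its interval, from 0.825 to 313, included 1.

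Between the ends of this order Oat differed 65.9-fold in CON (56.6 to 77.1), 25.2-fold in HFD (21.7 to 29.4) and 14.3-fold in CCL4 (10.8 to 19.4). Glul differed 8.32-fold (7.45 to 9.31), 21.8-fold (18.4 to 25.9) and 6.62-fold (5.01 to 8.89). CCL4 thus also had a gradient of Glul, at a lower level, from 18.2 CPM in the periportal to 120.4 CPM in the pericentral tertile, where CON had 665 and HFD 2435. Gulo ended at 142 CPM in the pericentral tertile of CCL4 and Rgn at 629.7, against 498 and 1102 in CON. Both Glul-rich cells of CCL4 were in that tertile and held 195 of the 345 Glul UMIs counted in it, as were 34 of the 37 in CON and 77 of the 78 in HFD. Left out, a choice made after seeing the data, the Glul ratio was 4.37 in CON (3.86 to 4.96), 3.66 in HFD (3.00 to 4.49) and 2.89 in CCL4 (2.13 to 3.98). Those of Oat were then 57.0, 19.4 and 9.38, and those of Slc1a2 84.0, 25.9 and 6.25, so the remaining cells held gradients of their own. The Slc1a2 ratio in CCL4 rested on 11 against 2 UMIs, with an interval from 1.36 to 58.1.

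Slc22a3 had the flattest course of the members, with ratios of 1.89 in CON (0.968 to 3.74), 3.61 in HFD (1.37 to 11.1) and 1.00 in CCL4 (0.546 to 1.83). Tbx3 rose from 0.637 to 26.9 CPM in CON and from 2.30 to 67.4 in HFD. Of the Lgr5 UMIs, 18 of 22 in CON and 32 of 36 in HFD were in the pericentral tertile, and of the Axin2 UMIs 11 of 11 and 15 of 16. Sparse as they were, both Wnt genes were found in the tertile where β-catenin targets are known to be active. The tertiles are ranges of a score, not cell types: 128 and 32 CON cells, 74 and 32 HFD cells and 301 and 242 CCL4 cells lay within 0.1 (natural log) of the lower and the upper limit. Median depth was 10608 UMIs in the periportal and 6411 in the pericentral tertile of CON, and the part of depth in the gradients was not tested.

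**Figure D4:**
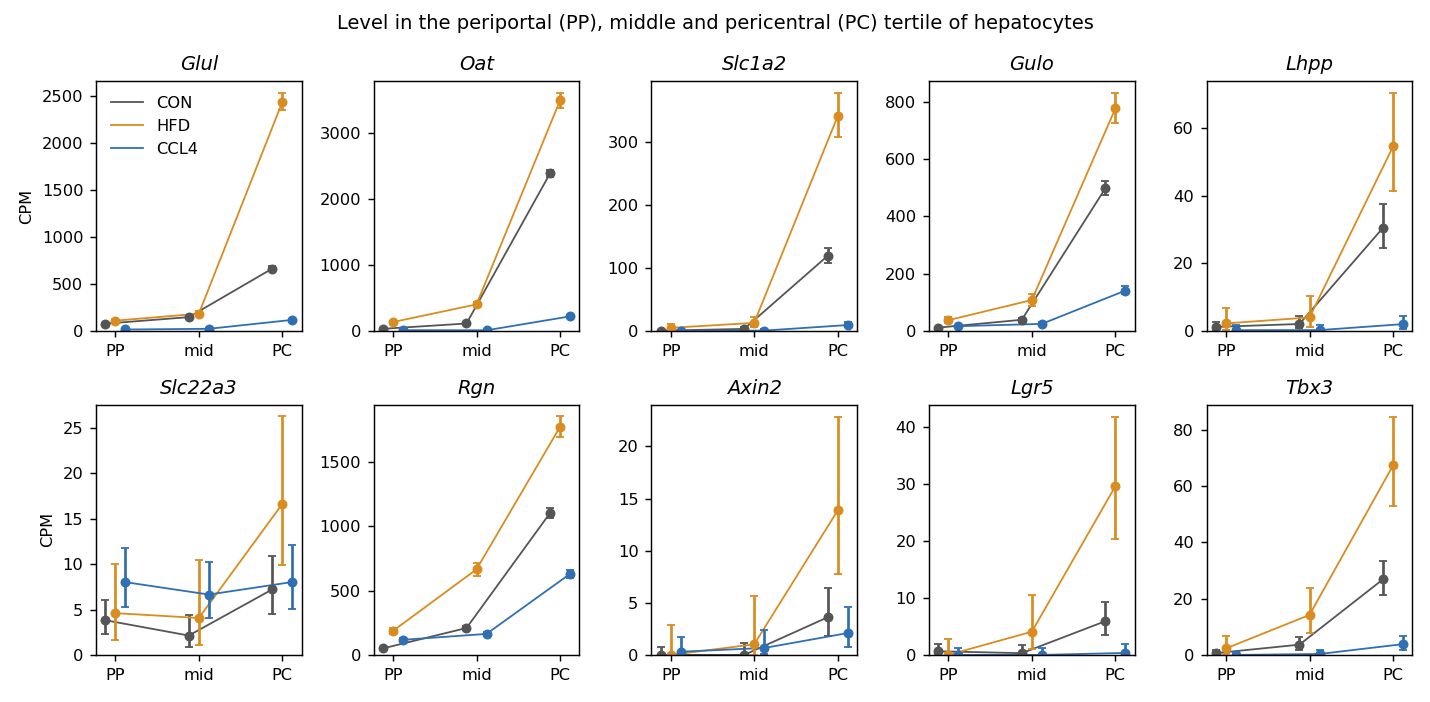
CPM of each gene in the periportal (PP), middle and pericentral (PC) tertile of hepatocytes in each library, with 95% counting intervals, for cells ordered by 35 genes that are not shown. Oat rises to 2391 CPM in CON, 3498 in HFD and 225 in CCL4, and Slc22a3 stays between 6.65 and 8.03 CPM in CCL4.

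In single cells the members were found together. After thinning to 1000 UMIs, the number of hepatocytes with both genes of a pair was divided by the number expected from the separate shares, for pairs with at least 5 cells expected. In CON all 10 such pairs of members were above 1, with a median of 2.31, in HFD all 16, with a median of 1.77, and in CCL4 all 3, with a median of 2.14. Slc1a2 and Gulo had the highest value in CON, at 3.65, with 19.0 cells observed and 5.22 expected. Glul and Slc1a2 were at 3.36 in CON and 3.15 in HFD, where 56.3 cells were observed and 17.9 expected.

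Joint detection was not particular to the members. Pairs of a member with 1 of the 19 other pericentral genes had medians of 1.73 in CON, 1.52 in HFD and 2.02 in CCL4. Pairs of a member with a periportal gene had a median of 0.648 over 79 pairs in CON and 0.614 over 100 pairs in HFD. In CCL4 the median was 0.912 over 75 pairs, nearer to 1. In T cells, which stood for free RNA, pairs of members had medians of 1.09, 1.01 and 1.06 in the 3 libraries, with a highest value of 1.19. The T cell pairs of HFD included Axin2, not read as free RNA, with Oat at 1.01 and with Rgn at 0.912. In CCL4 the tested pairs were Glul, Oat and Gulo with Rgn, at 1.46, 2.14 and 2.20. Pairs share genes and cells and are not independent, so these are descriptions.

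**Figure D5:**
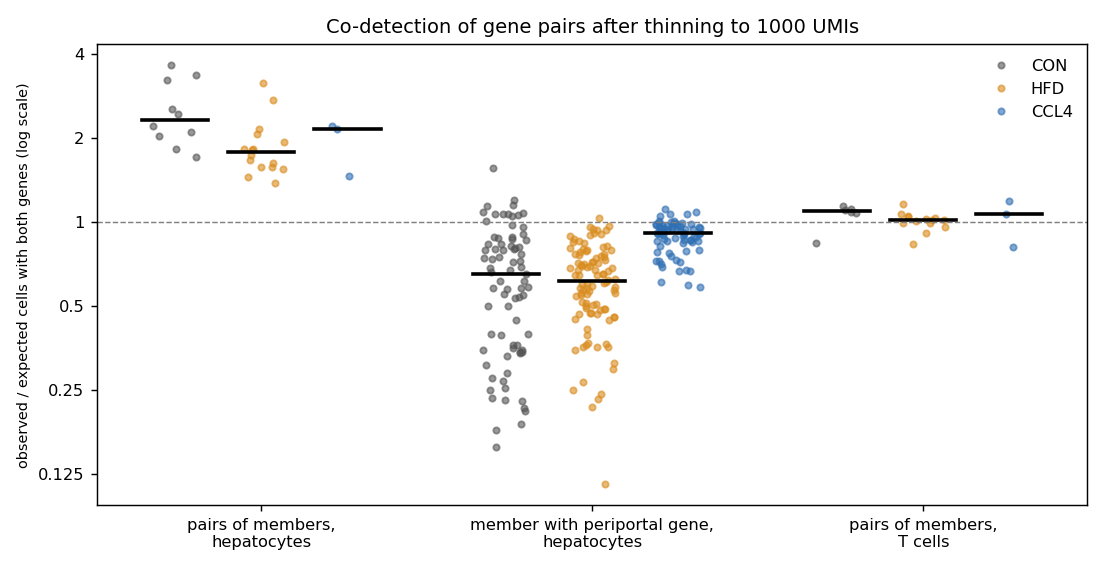
Observed over expected number of cells with both genes (log axis) for each tested pair (points) after thinning to 1000 UMIs, with the median as a bar, in CON, HFD and CCL4. Pairs of members in hepatocytes lie above 1 (medians 2.31, 1.77 and 2.14), pairs of a member with a periportal gene mostly below it, and pairs of members in T cells near it.

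The genes most like Glul were ranked by the ratio of their level in hepatocytes with at least 2 Glul UMIs to that in hepatocytes with none (5 CPM added to both), taking the smallest ratio of the 3 libraries, over 8354 genes. Slc1a2 was first, with ratios of 10.6 in CON, 25.1 in HFD and 18.1 in CCL4. Oat was second at 7.65, 6.42 and 32.5, and Gulo was next with a smallest ratio of 4.42. The CCL4 values rested largely on the 2 Glul-rich cells, among 39 hepatocytes with at least 2 Glul UMIs. They held 17 of the 18 Slc1a2, 224 of the 251 Oat and 33 of the 73 Gulo UMIs of those 39 hepatocytes. Without cells of at least 10 Glul UMIs in any library, an alternative added after seeing the data, the ratios of Slc1a2 were 6.35, 8.86 and 1.92, the last from 1 UMI, and its rank was 17. Oat then ranked 1, at 6.19, 4.03 and 3.81, and Gulo 3, at 4.72, 3.03 and 4.61. Over all cells with at least 2 Glul UMIs, Slc1a2, Oat and Gulo were followed by Cyp2a5 (smallest ratio 4.09), Fitm1 (4.02), the predicted gene Gm13775 (3.48), Gstm2 (3.36), Cyp2c38 (3.16), Serpina7 (3.13) and Mup17 (2.99). Tbx3 ranked 15, Lhpp 16, Rgn 30 and Slc22a3 4473. Mup17, Gstm2 and the Cyp2 genes belong to families of similar genes, and how reads shared within a family were counted was not checked.

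At the other end, the genes lowest in hepatocytes with at least 2 Glul UMIs in all libraries were Spp1 (largest ratio 0.246), Aldh1b1 (0.471), Fgfr1 (0.497), Gldc (0.529) and Rasgef1b (0.541). Aldh1b1 and the glycine cleavage gene Gldc are periportal enzymes, and Spp1 is also a cholangiocyte marker. For reference, 0.718% of the ranked genes in CON, 1.29% in HFD and 3.11% in CCL4 were at least 2-fold higher in the cells with at least 2 Glul UMIs. These cells were also deeper in CON, with a median of 9745 UMIs against 5977.5 in Glul-negative cells, and the part of depth in the ranking was not tested.

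Other genes of the zonation programme were also lower in CCL4. Of 17 further pericentral genes at the level limit, 11 were at least 2-fold lower and 1 at least 2-fold higher in CCL4 than in CON, where 6.81% of all genes were lower and 7.17% higher by that much. Cyp2e1 was at 913, 2355 and 289.6 CPM in CON, HFD and CCL4, and Cyp1a2, an enzyme of drug and caffeine oxidation, at 182, 858 and 21.7. Cyp7a1, the rate-limiting enzyme of bile acid synthesis, was the gene that went up in CCL4, at 9.33, 108 and 90.0 CPM. In HFD 7 of the 17 were at least 2-fold higher than in CON (7.69% of all genes) and 1 was at least 2-fold lower (5.2% of all genes), Ahr, at 71.4, 33.5 and 26.3 CPM. Cyp2a5 had the largest rise in HFD among these genes, from 14.6 to 210.3 CPM.

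Of 16 periportal genes, 11 were at least 2-fold higher and 0 at least 2-fold lower in CCL4 than in CON, where 7.17% and 6.81% of all genes were, and 3 and 0 in HFD, where 7.69% and 5.2% were. Gls2, the glutaminase that releases ammonia for the urea cycle, was at 121.5 CPM in CON, 247 in HFD and 662 in CCL4, and Cps1, the first enzyme of that cycle, at 1968, 2787 and 5605. Against Glul the direction in CCL4 was opposite. Most other genes of glutamate and proline handling did not follow Oat and Glul down. Of 7 at the level limit, 0 were at least 2-fold lower and 3 at least 2-fold higher in CCL4 than in CON. Of all genes, the same 6.81% and 7.17% were. Among the 3 was Got1, a glutamate transaminase, at 193, 419.8 and 1000.3 CPM. Aldh18a1, below the limit, had 13, 3 and 0 UMIs in CON, HFD and CCL4. The upper bound of its CCL4 to CON ratio was 0.397. In vitamin C synthesis, Ugp2, which makes UDP-glucose, was at 157, 369.6 and 466 CPM and Ugdh at 343, 359 and 223, where Gulo was lower in CCL4 by more than 2-fold.

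The Wnt pathway upstream of the members was measured in part. None of the 4 ligands and agonists Wnt2, Wnt9b, Rspo1 and Rspo3 reached the level limit in hepatocytes, which are not their source. Of 7 receptor genes at the level limit, 2 were at least 2-fold higher and 0 lower in CCL4 than in CON, and 3 and 0 in HFD. Fzd6 and Fzd8 were below the limit, at CCL4 to CON ratios of 0.507 and 3.17. Of all genes, 7.17% were higher and 6.81% lower by that much in CCL4, and 7.69% and 5.2% in HFD. Fzd4 was at 4.17, 20.8 and 14.9 CPM and the R-spondin receptor Lgr4 at 71.4, 58.1 and 74.2. Ctnnb1, which encodes β-catenin, was at 159, 141 and 177 CPM, and Tcf7l2, its partner on DNA, at 40.2, 84.5 and 71.9. Of 7 inhibitors at the level limit, 1 was at least 2-fold higher in CCL4 than in CON, and 2 were in HFD. The 1 in CCL4 was Rnf43, at 1.81, 12.2 and 5.48 CPM, which reached the limit through HFD and CCL4. Nkd1 was below the limit, with 14, 1 and 3 UMIs in CON, HFD and CCL4. Its CCL4 to CON ratio was 0.259 (0.0478 to 0.930).

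Of 4 effectors at the level limit, 2 were at least 2-fold higher in CCL4 than in CON, Tcf7l1 and Bcl9l, and 3 were in HFD. None was lower in either, beside the shares of all genes given above. Lef1 and Bcl9 were below the limit, at CCL4 to CON ratios of 2.02 and 2.48. Of the other targets, Myc was at 43.8, 39.2 and 6.14 CPM and Ccnd1 at 51.2, 49.8 and 100.0 in CON, HFD and CCL4, which is no common direction. Sp5 was at 0.272 CPM in CON, from 3 UMIs, and at 3.86 CPM in HFD, from 13 UMIs, a ratio of 14.2 (3.90 to 77.7). It had no UMI in CCL4, which allows up to 0.329 CPM, so CCL4 and CON could not be told apart. All 8 acute-phase and metallothionein genes were at least 2-fold lower in HFD and in CCL4 than in CON, where 5.2% and 6.81% of all genes were. Among them Lcn2 was at 2932, 31.4 and 37.4 CPM in CON, HFD and CCL4. The part of these genes in the differences of the members between CON and the other libraries was not tested. The ratios of CCL4 to HFD given above do not involve the CON library.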

How the data were processed

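The authors deposited 3 filtered gene by barcode matrices of raw UMI counts (10x Genomics 3' chemistry), made with Cell Ranger per the labels. The study's methods name the mm10 genome and the submitters' processing notes GRCm39. Of the 55357 gene identifiers in the files, 52081 were in GENCODE M21 (GRCm38), which gave the positions. From the counts, UMIs were summed over hepatocytes per library and divided by their total (CPM). T cells (a UMI of Ptprc and at least 2 UMIs of T cell receptor and CD3 genes) stood for free RNA, with Axin2 read separately. Their level lay above that of periportal hepatocytes for several members. Intervals were exact at the 95% level (Poisson for levels, conditional binomial for ratios, Clopper-Pearson for shares), and a count of 0 was set to a floor of 3 UMIs. Thinning used exact expected values. Total UMIs were 49613255 in CON, 34985786 in HFD and 34061186 in CCL4, over 11245, 12984 and 12761 barcodes. Barcodes were used as deposited, no doublet caller was run, and 1 alternative left out the 8% of hepatocytes with most UMIs. Genes entered the fold counts with a mean of at least 5 CPM. The named genes were the 10 members, the 10 genes most and the 5 least like Glul, and genes of the zonation, Wnt, metabolic and acute-phase lists. The members and lists were chosen with earlier results of these data known. The scripts were tested on simulated data. Python 3.11.15, NumPy 2.4.6 and SciPy 1.17.1 were used.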

Additional observations from a re-analysis of the deposited data

How the results depend on the processing

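Each count and median was recomputed under other choices of cells, scaling and limits, of which 2 were added after seeing the data, with a count or median taken as moved when it changed by more than 1.5 times. Of 150 such values, 138 kept within that range. The number of members at least 2-fold higher in HFD than in CON, 5 as reported, was 8 with a mitochondrial minimum of 5%, where 10.4% of all genes were. It was 1 without droplets holding a UMI of another cell type (8.29% of all genes). Without cells with at least 10 Glul UMIs (added) it was 2 (7.77% of all genes). It was 3 with size-factor scaling and 8 at a fold of 1.5, a looser limit. With a minimum of 20 CPM it was 3, over fewer members, because Lhpp, Slc22a3 and Tbx3 were then left out. Lhpp and Tbx3 were among the 5 reported. For these last settings the share of all genes was not computed, so their counts have no background. The number higher in CCL4 than in CON, 0 as reported, was 1 with the mitochondrial minimum of 5%, where 9.45% of all genes were. It was also 1 with the mean of each cell's CPM and at a fold of 1.5, without a computed share. The number above T cells was 5 rather than 8 in CON with B cells as free RNA, 2 rather than 6 in HFD without the cells with at least 10 Glul UMIs, and 5 rather than 3 in CCL4 at a fold of 1.5. No share of all genes was computed for these settings. Of 360 ratios of single members, 10 lay on the other side of 1 from the value reported. In 4 of these the reported interval did not include 1: without droplets holding a UMI of another cell type, Oat, Slc1a2, Gulo and Lhpp in HFD over CON were at 0.693, 0.996, 0.836 and 0.887, and the cause was not tested. The other 6, of Axin2 in CCL4 over CON and Slc22a3 in CCL4 over HFD, had intervals that included 1. Glul in CCL4 over CON ranged from 0.131 to 0.401. Median log2 ratios of all genes in HFD over CON were 0.12 as reported, 0.17 when scaled outside mitochondrial and the 20 most abundant genes, and 0.01 with size factors. No paired analysis was possible because each group had 1 library. Axin2 and Lgr5 were counted at 1 to 36 UMIs per library, so their ratios are imprecise.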
